A study of Mus musculus with 2 samples.

Results

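The injured oligodendrocytes of middle depth are 54 scRNA-seq barcodes from the injury site of crushed mouse optic nerves. A barcode belongs to them when the authors typed it as an oligodendrocyte, when it comes from the crushed library, and when it holds at least 1500 and under 8000 UMIs (unique molecular identifiers, each standing for 1 captured RNA molecule). They are 54 of the 293 injured oligodendrocytes, of the 410 injured barcodes of the oligodendrocyte lineage and of the 1369 lineage barcodes in all. They were set against the 407 uninjured oligodendrocytes of the same depth. The barcodes were chosen by their type and their depth, both of which were read from the same UMIs, so the depths and the markers of the type are given as descriptions.

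The study compared optic nerves at 2 weeks after optic nerve crush (ONC), which cuts the axons of the retinal ganglion cells and leaves the nerve sheath in place, with uninjured optic nerves. Each condition was 1 library of cells pooled from 5 nerves. The mice were Wildtype and of the 129S1/SvlmJ strain, male and female pooled, 10 weeks old when the cells were taken, with ONC done at 8 weeks in the injured group. The labels give day 56 as the age of both libraries and call both crushed. The title and the series design tell which of them is uninjured. With 1 library per condition there is no replicate check, no test was made, and every interval is a 95% interval that covers counting error only.

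Mature oligodendrocytes wrap axons in myelin, a membrane stack that is rich in cholesterol and in galactolipids. The cells make most of this cholesterol themselves from acetyl-CoA through the mevalonate pathway, whose genes are driven by SREBP2 (encoded by Srebf2) when sterol in the cell is low. When sterol is high the pathway is shut down, and LXR receptors raise genes of cholesterol export such as Abca1, a transporter that loads cholesterol onto the lipid carrier Apoe. The myelin protein Mag and the reticulon Rtn4 (Nogo) are also known as brakes on axon growth.

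Depth was alike in both groups. The 54 injured barcodes held 183428 UMIs, with 1546 to 7857 per barcode and a median of 3174.5, and the 407 uninjured barcodes held 1488642 UMIs, with 1510 to 7941 and a median of 3250. The 3 injured oligodendrocytes nearest below the lower edge had 1381, 1394 and 1466 UMIs and the 3 nearest inside it 1546, 1556 and 1567. At the upper edge the 3 deepest inside had 6324, 6616 and 7857 UMIs, and the next above it had 8982, 9122 and 9338. The libraries shared 0 barcode sequences.

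Signs of RNA quality and of other cells were not alike. Malat1, a noncoding RNA kept in the nucleus, took 0% to 13.4% of the UMIs of an injured barcode, with a median of 5.03%, and 0% to 39.1% of an uninjured one, with a median of 8.17%. It was under 0.5% in 15 of 54 injured barcodes (27.8%, exact binomial interval 16.5 to 41.6) and in 15 of 407 uninjured barcodes (3.69%, 2.08 to 6.01). Mitochondrially coded RNA took over 10% in 33 of 54 injured barcodes (61.1%) and in 155 of 407 uninjured ones (38.1%). The 20 microglia and macrophage markers summed to 170 UMIs, or 927 CPM (UMIs of the gene or list per 1e+06 UMIs of the group), in the injured barcodes, 0 to 22 UMIs in each, and to 44 UMIs, or 29.6 CPM, 0 to 4 in each, in the uninjured ones. Of these markers, 0 of 20 stood at 0 in the injured and 6 of 20 in the uninjured barcodes. At least 5 such UMIs were found in 12 of 54 injured and 0 of 407 uninjured barcodes. Injured OPCs (oligodendrocyte precursor cells) and NFOs (newly formed oligodendrocytes) of the same depth held a like level, 954 and 1195 CPM, over 7 and 32 barcodes. The part of immune RNA and of RNA quality in the results below was not tested.

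**Figure D1:**
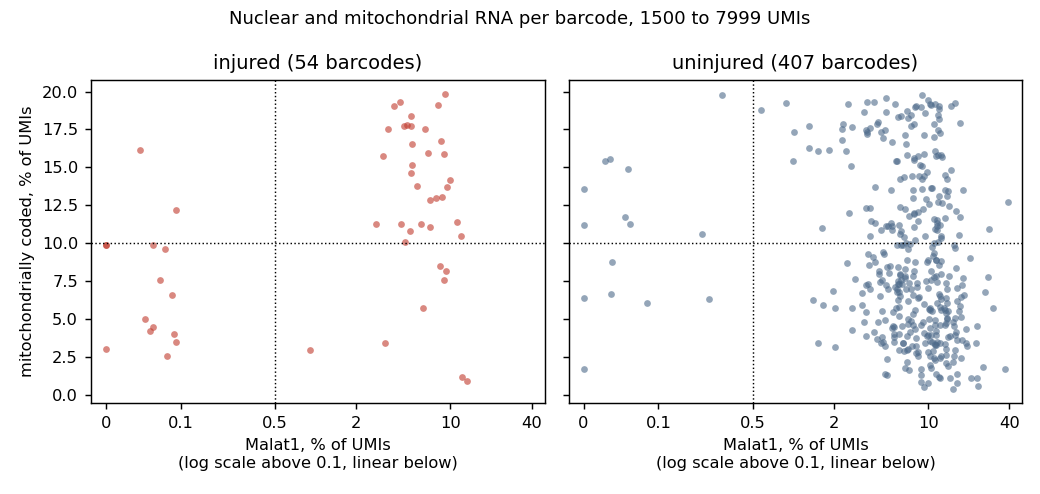
Share of UMIs from Malat1 (x axis, %, log scale above 0.1) against the share from mitochondrially coded genes (y axis, %) for each oligodendrocyte barcode of middle depth, injured on the left and uninjured on the right. Dotted lines mark 0.5% and 10%. The 15 injured barcodes left of the vertical line are apart from the other 39, which reach down only to 0.903% Malat1.

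The 4 genes that mark these barcodes were read first. Mag, a myelin adhesion protein of the membrane next to the axon (chromosome 7 of GRCm38, 30899176 to 30914873), gave a UMI in 90.7% of injured barcodes (49 of 54, 79.7 to 96.9) and in 99.8% of uninjured ones. Its normalized expression (NE, the natural log of 1 plus UMIs per 10000) ran from 0 to 4.57 with a median of 3.50 in injured barcodes, and from 0 to 5.79 with a median of 3.79 in uninjured ones. The groups overlapped over most of this range. The summed level of Mag was 3435 CPM after ONC and 4756 CPM without injury, a ratio of 0.72 (exact conditional interval 0.665 to 0.784).

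Mog, a protein of the outermost myelin surface (chromosome 17, 37010743 to 37023398), stood farther apart. It was found in 44 of 54 injured barcodes, 81.5%, and in 98.5% of uninjured ones. NE of Mog was 0 to 3.62 with a median of 2.30 after ONC and 0 to 4.85 with a median of 3.31 without injury. At 1058 against 3251 CPM the ratio was 0.33 (0.280 to 0.376), so that Mog was lower by more than 2-fold and Mag was not. Rtn4 (chromosome 11, 29692947 to 29744331) did not differ beyond counting error. Its NE was 0 to 3.95 with a median of 2.68 in injured and 0 to 3.94 with a median of 2.82 in uninjured barcodes, and its CPM was 1641 and 1684, a ratio of 0.97 (0.862 to 1.1).

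The 7 injured OPC barcodes of the same depth, with a median of 2787 UMIs, were read for the level that free RNA could bring. They held 130 CPM of Mag (3 UMIs), 0 UMIs of Mog among 23069 UMIs, and 130 CPM of Rtn4. The injured oligodendrocytes were 26.4 times (9.0 to 128) as high for Mag and 12.6 times (4.28 to 61.5) for Rtn4. Uninjured OPCs of this depth held 297 CPM of Rtn4, with a UMI in 57.5% of barcodes, so OPCs are not free of it. Over the 32 injured NFOs of this depth the oligodendrocytes stood less far, at 2.36 times (1.97 to 2.83) for Mag. For Mog it was 2.05 times (1.51 to 2.84) and for Rtn4 1.71 times (1.35 to 2.16). All of Mag, Mog and Rtn4 were present in 43 of 54 injured barcodes (79.6%) and in 389 of 407 uninjured ones (95.6%). Neither Mag nor Mog was found in 5 of 54 injured and 0 of 407 uninjured barcodes, which allows a share of up to 0.902% for the latter. Since the authors used Mag and Mbp to name the type, these shares describe the type and do not test it.

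Markers of endothelial cells, OPCs and astrocytes were at or near 0 in the injured barcodes, while those of NFOs and Schwann cells were not. The 6 endothelial markers stood at 0 UMIs, and Pdgfra, which marks OPCs, had a UMI in 1 of 54. A UMI of the astrocyte filament Gfap was found in 5 of 54 injured and in 32 of 407 uninjured barcodes. The OPC list of 9 genes summed to 10 UMIs and the astrocyte list of 10 genes to 29. The NFO list of 12 genes summed to 169 UMIs, or 921 CPM, mostly from Bcas1 with 104 UMIs, and stood at 1206 CPM without injury. The Schwann cell list of 8 genes summed to 74 UMIs, or 403 CPM, and stood at 604 CPM without injury. A pair of barcodes stood apart. In the first, the 22 immune UMIs were the most of any barcode (the next had 9), Apoe had 61 UMIs, and Mag and Mog had 0. The second had 4 Mbp UMIs and 6 of Abca1 but 0 of Mag and Mog.

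**Figure D2:**
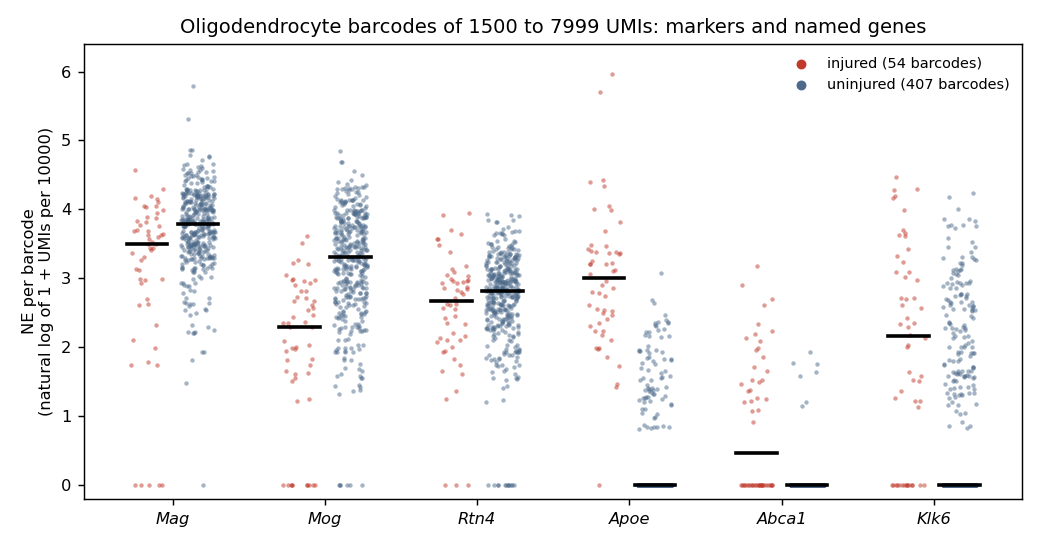
NE (y axis, natural log of 1 plus UMIs per 10000) of 6 genes in each of the 54 injured and 407 uninjured oligodendrocyte barcodes of middle depth. Points are barcodes and black lines are medians. Apoe is above 0 in 53 injured barcodes, Mog sits lower after ONC, and Rtn4 overlaps.

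Across all genes, 1660 had a mean of both CPMs of at least 100 and a UMI in at least 10% of the barcodes of either group. Of these, 109 (6.57%) were at least 2-fold higher and 132 (7.95%) at least 2-fold lower in the injured barcodes, and the counting interval of none of these spanned 1. The median log2 ratio of all 1660 was 0.04. Scaling by TMM factors, in place of total UMIs, lowers every log2 ratio by 0.15 and turns this split to 67 higher and 181 lower, that is, from 45.2% to 27.0% higher. Without the single barcode with most UMIs of each gene, the split was 85 higher and 189 lower, 31.0% higher. Of the genes past 2-fold, 62 of the 109 had an uninjured CPM under 100 and 60 of the 132 an injured CPM under 100, so they passed the filter only through the group in which they were high.

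The genes that were lowest after ONC were those of cholesterol synthesis. Of the 23 list members, 13 passed the filter and all 13 were at least 2-fold lower, against 7.95% of all genes tested, with a median log2 ratio of -3.06. All 13 had an injured CPM under 100, so they passed through the uninjured group alone and had to differ, and the whole list is the fairer reading. Over all 23 members, the injured barcodes held 134 UMIs, or 731 CPM, and the uninjured ones 9443 UMIs, or 6343 CPM, a ratio of 0.115 (0.0964 to 0.137). All 23 were lower in the injured barcodes, and for 21 of them the ratio was under 0.5 and its interval under 1. The exceptions were Stard4, a cholesterol carrier, with a ratio of 0.656 (0.275 to 1.34) and Tm7sf2, a sterol reductase, with 0 against 13 UMIs, too few to give a ratio. Beside this count, 1098 of 9927 genes with a UMI in both groups were at least 2-fold lower without the CPM filter.

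Barcode by barcode, the list took 0 to 20.1 of each 10000 UMIs after ONC, with a median of 6.4, and 3.62 to 232 without injury, with a median of 50.4. All 54 injured barcodes lay under the uninjured median, and 43 uninjured barcodes (10.6%) lay at or under the highest injured one. No UMI of the list was found in 10 of 54 injured and in 0 of 407 uninjured barcodes. The lower level was therefore seen across the barcodes and not in a few.

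**Figure D3:**
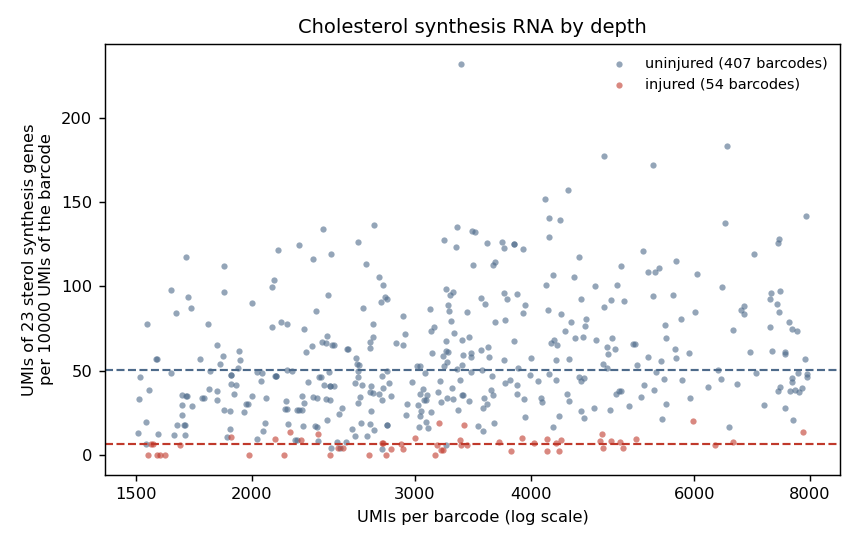
UMIs of the 23 genes of the cholesterol synthesis list per 10000 UMIs (y axis) against the UMIs of each barcode (x axis, log scale). Dashed lines are the medians, 6.4 in injured and 50.4 in uninjured barcodes, and injured barcodes stay at or under 20.1 at every depth.

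Hmgcs1, which condenses acetyl-CoA units into HMG-CoA at the entry of the pathway (chromosome 13, 119690379 to 119708260), had an NE of 0 to 2.29 with a median of 0 after ONC and 0 to 4.07 with a median of 2.50 without injury. A UMI was found in 11 of 54 injured barcodes, 20.4%, and in 86.0% of uninjured ones. The summed level was 81.8 against 1555 CPM, a ratio of 0.05 (0.0294 to 0.0869). Idi1 and Fdps, which build the isoprenoid chain, had ratios of 0.12 and 0.07, and Fdft1, which makes squalene, had 0.09. Sqle, which oxidizes squalene, and Cyp51, which demethylates lanosterol, stood at 0.13 and 0.12. Msmo1, a later sterol demethylase, went from 756 to 43.6 CPM.

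Regulators of the pathway were read as well. Insig1, which holds SREBP proteins in the endoplasmic reticulum and is itself one of their targets, had 27.3 CPM after ONC and 228 CPM without injury, a ratio of 0.12 (0.0386 to 0.282). Srebf2 had 8 and 367 UMIs, a ratio of 0.18. Srebf1, which encodes the SREBP that mainly drives fatty acid synthesis and is an LXR target, was on the other side, with 27 and 81 UMIs, a ratio of 2.71 (1.68 to 4.23). Injured OPCs and NFOs of the same depth held 1214 and 1312 CPM of the synthesis list, and the uninjured ones 2751 and 4363 CPM. The injured oligodendrocytes, at 731 CPM, had the lowest of these levels.

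The promoter sequences of the pathway were read because its genes moved together and because Hmgcs1 is its lowest member and Abca1 the highest of the export genes. Of the 13 tested synthesis genes, 8 have an entry among the 27025 RefSeq promoters of GRCm38.p6 (250 bases before the gene start to 50 after it), and Fdft1, Fdps and Sqle are among those not matched. The sterol regulatory element searched was TCACNCCAC, on both strands. It was found in 1 of the 8, Hmgcs1, and in 1.04% of all promoters. CCAAT, the box that the factor NF-Y binds, was found on either strand in 8 of 8 and in 34.5% of all promoters. The second motif is a direct repeat of the kind that LXR receptors bind, searched on both strands as GGTNA and GGTCA with 5 bases between them. It was found in Abca1 and not in Apoe, and in 0.163% of all promoters. A stricter spelling, AGGTCA repeated with 4 bases between, was found in 3 promoters (0.0111%) and in neither gene. Below are the 250 bases before each start, from chr13:119690101-119690350 on the plus strand for Hmgcs1 and from chr4:53159896-53160145 on the minus strand for Abca1. Capitals mark the match, which begins 137 bases before the start in Hmgcs1 and 67 bases before it in Abca1, where it reads on the opposite strand. A match describes the letters and is not a site shown to be bound.
Hmgcs1: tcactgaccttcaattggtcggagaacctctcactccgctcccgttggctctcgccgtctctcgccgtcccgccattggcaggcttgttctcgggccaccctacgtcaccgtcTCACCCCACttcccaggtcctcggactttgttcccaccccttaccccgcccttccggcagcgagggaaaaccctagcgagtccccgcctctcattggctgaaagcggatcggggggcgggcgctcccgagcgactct
Abca1: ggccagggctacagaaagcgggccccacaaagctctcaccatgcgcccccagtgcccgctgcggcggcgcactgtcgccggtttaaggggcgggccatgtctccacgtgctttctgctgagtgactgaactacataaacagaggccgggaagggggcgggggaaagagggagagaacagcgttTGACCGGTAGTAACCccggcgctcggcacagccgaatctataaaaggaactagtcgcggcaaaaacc

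Among the genes of cholesterol export and uptake, 9 of 15 passed the filter, with a median log2 ratio of 0.29. Of these 2 were at least 2-fold higher and 1 lower, against 6.57% and 7.95% of all genes tested. Those that were higher, Apoe and Abca1, had an uninjured CPM under 100 and passed through the injured group alone. Over the 14 members with a UMI in either group, 4 were at least 2-fold higher and 1 lower. Without the CPM filter these were 2012 and 1098 of the 9927 genes with a UMI in both groups. Apoe (chromosome 7, 19696109 to 19699188) had an NE of 0 to 5.97 with a median of 3.01 after ONC and of 0 to 3.08 with a median of 0 without injury. A UMI was found in 53 of 54 injured barcodes (98.1%, 90.1 to 100) and in 20.1% (16.4 to 24.4) of uninjured ones. Its level was 2813 against 90.7 CPM, a ratio of 31.0 (25.6 to 37.8). Yet injured OPCs and NFOs of the same depth held Apoe in 7 of 7 and 32 of 32 barcodes, at 2254 and 2226 CPM. The oligodendrocytes were 1.25 times (0.937 to 1.69) the OPC level and 1.26 times (1.08 to 1.48) the NFO level. Uninjured OPCs and NFOs of this depth held 829 and 357 CPM, with a UMI in 72.5% and 43.8% of barcodes, so these types are not free of Apoe. The share of injured oligodendrocytes with Apoe was not above that of the other types in the injured library, and the part of free RNA in it was not tested.

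Abca1 (chromosome 4, 53030787 to 53159895) had 63 UMIs in 27 of 54 injured barcodes and 8 UMIs in 7 of 407 uninjured ones. Its NE reached 3.18 with a median of 0.46 after ONC and 1.93 with a median of 0 without injury. At 343 against 5.37 CPM its ratio was 63.9 (30.5 to 154), the highest of all genes tested. The same caution holds in part. Injured OPCs held 260 CPM (95.4 to 566) from 6 UMIs and injured NFOs 146 CPM (81.6 to 240) from 15. The oligodendrocytes were above the NFOs, by 2.36 times (1.33 to 4.46), and not beyond counting error above the OPCs, at 1.32 times (0.574 to 3.73). Of the NFOs, 24 of 32 had Malat1 under 0.5%, and the 15 injured oligodendrocytes under that share held 1 Abca1 UMI. The part of this in the comparison was not tested. Among the other members, the LXR target Abcg1, a second cholesterol transporter, had 185 against 151 CPM, a ratio of 1.23 (0.829 to 1.76). The apolipoprotein Apod had 4154 against 2481 CPM, a ratio of 1.67, and Npc1 and Npc2, which release cholesterol from lysosomes, had ratios of 1.0 and 0.777. Across the 54 injured barcodes, NE of Apoe and of Abca1 were not related (Spearman's rho -0.05), and both come from the same shallow libraries.

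**Figure D4:**
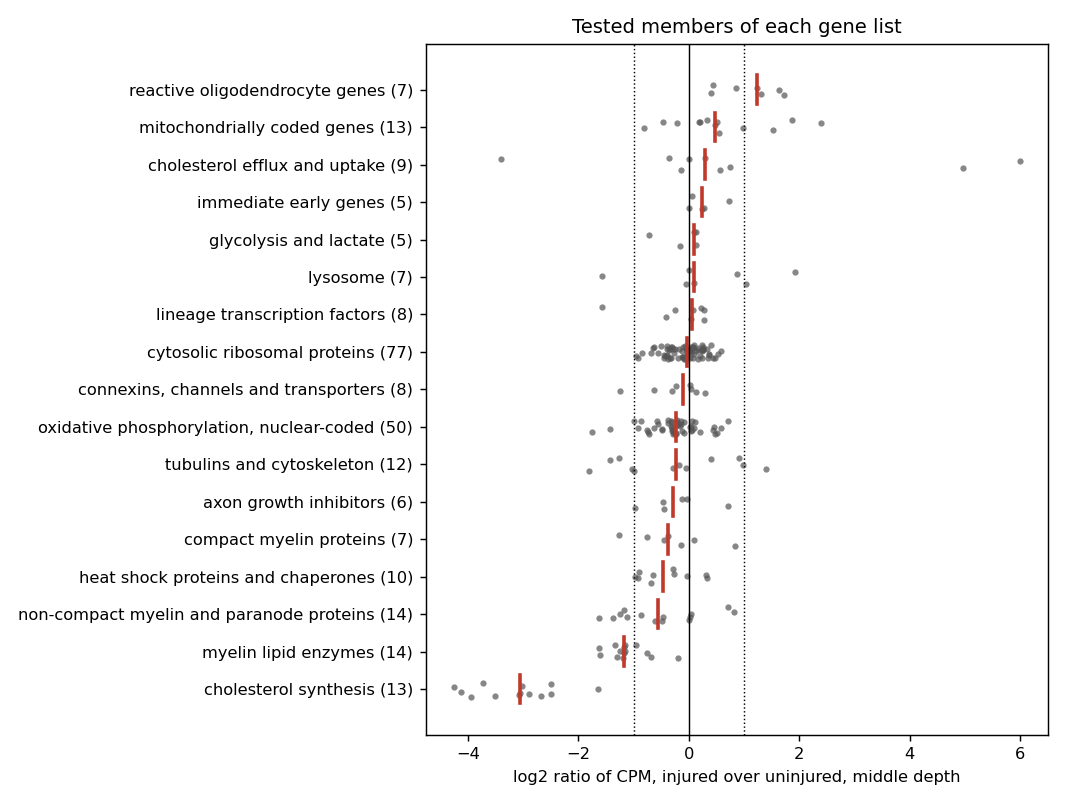
The log2 ratio of CPM, injured over uninjured (x axis), of each tested member (grey points) of the gene lists with at least 5 tested members (y axis, number tested in parentheses). Red bars are medians and dotted lines mark 2-fold. The cholesterol synthesis points lie left of the line for 2-fold lower, and Apoe and Abca1 are the points far to the right.

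Compact myelin genes were mostly within 2-fold. All 7 list members passed the filter, with a median log2 ratio of -0.37. Of these, 1 was at least 2-fold lower, against 7.95% of all genes tested, and none higher. The one that was lower is Mal, a lipid raft protein of myelin, with NE of 0 to 5.16 and a median of 2.91 after ONC and of 0 to 5.33 and a median of 4.05 without injury. It went from 6978 to 2906 CPM, a ratio of 0.42 (0.381 to 0.454). Cldn11, a tight junction protein, had a ratio of 0.74, and Pllp, a proteolipid, one of 0.59.

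Mbp, which holds the inner faces of the myelin membrane together and whose RNA is carried into the processes, had the opposite value from 2 barcodes. Its NE was 2.33 to 8.09 with a median of 4.21 after ONC and 3.16 to 6.2 with a median of 4.36 without injury. The summed level was 14851 against 8340 CPM, a ratio of 1.78 (1.71 to 1.86). The barcodes with most Mbp held 648 and 637 UMIs, while the next held 110. Without these 2 the ratio was 0.96 (0.912 to 1.02). It was 0.98 without the 5 barcodes that lack Mag and 0.80 without those poor in Malat1, so the direction of Mbp rests on a few barcodes.

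Genes of non-compact myelin and of the paranode, the loops that seal myelin to the axon, were lower in part. Of the 15 members found, 14 passed, 5 were at least 2-fold lower, against 7.95% of all genes tested, and none higher, with a median log2 ratio of -0.55. Among the 5 were Mog, Opalin, Cnp and Jam3. Opalin, a sialoprotein of mature oligodendrocytes, had a ratio of 0.39 (0.301 to 0.489). Cnp, the phosphodiesterase that keeps cytoplasm in the myelin channels, went from 4550 to 2012 CPM, a ratio of 0.44 (0.397 to 0.491). Nfasc and Cntn2, adhesion proteins of the node region, were on the other side of 1, with ratios of 1.77 and 1.63. Omg was under the filter and had 4 against 222 UMIs.

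The genes of axon growth inhibitors did not move together. Of 16, 6 passed the filter, none was past 2-fold in either direction, and their median log2 ratio was -0.28. Besides Mag and Rtn4 these were Efnb3, an ephrin of myelin, at 0.51 (0.384 to 0.669), Sema4d, a semaphorin of oligodendrocytes, at 1.65 (1.35 to 1.99), Sema6d at 0.73 and Rgma at 0.923 (0.542 to 1.49). Over the 15 members with a UMI, 3 were at least 2-fold lower and 2 higher, with intervals under 1 for 5 and above 1 for 1. Without the CPM filter, 1098 of 9927 genes with a UMI in both groups were at least 2-fold lower and 2012 higher. Genes at 0 in 1 group are not among these 9927 but do count in the list, so the shares are not of the same kind. Summed over the whole list, the ratio was 0.794 (0.748 to 0.842).

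Enzymes that make the lipids of myelin were lower as a list. Of 18 members, 14 passed the filter, 10 of these were at least 2-fold lower, against 7.95% of all genes tested, and none higher, with a median log2 ratio of -1.17, and 4 of the 14 had an injured CPM under 100. Over all 18 the level was 5386 against 9416 CPM, a ratio of 0.572 (0.536 to 0.610). Fa2h, which hydroxylates the fatty acids of galactolipids, was found in 23 of 54 injured and in 87.0% of uninjured barcodes. Its NE had a median of 0 and a highest value of 2.61 after ONC, against 2.06 and 3.42 without injury, and its ratio was 0.32 (0.236 to 0.433). Ugt8a, the enzyme that adds galactose to ceramide, and Gal3st1, which adds sulfate to make sulfatide, had ratios of 0.446 and 0.437. Acsl3, which activates fatty acids, Elovl1, which lengthens them, and Enpp6, a choline phosphodiesterase of young oligodendrocytes, stood at 0.33, 0.40 and 0.41. Scd2, the main desaturase of oligodendrocytes, did not reach 2-fold, at 0.874 (0.794 to 0.960).

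Genes known to rise in reactive oligodendrocytes were higher. Of 17 members 7 passed, 4 of these were at least 2-fold higher, against 6.57% of all genes tested, and none lower, with a median log2 ratio of 1.23. Over all 17, the interval of the ratio lay above 1 for 14, and 11 were at least 2-fold higher and 1 lower. Without the CPM filter, 2012 of 9927 genes with a UMI in both groups were at least 2-fold higher and 1098 lower. Earlier results of these data were known when the list was chosen, so its direction is not independent evidence. Klk6, a secreted serine protease of oligodendrocytes, was found in 39 of 54 injured barcodes (72.2%) and in 38.6% of uninjured ones. Its NE was 0 to 4.48 with a median of 2.16 after ONC and 0 to 4.24 with a median of 0 without injury, so the ranges overlapped fully while the medians did not. The ratio was 3.31 (2.91 to 3.76), from 1875 against 566 CPM. Injured OPCs of this depth held 0 Klk6 UMIs and injured NFOs 2, so the Klk6 level was 96.5 times (26.5 to 800) that of the NFOs.

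Klk8, a related protease, had 23 UMIs in 16 of 54 injured barcodes and 0 UMIs in the 407 uninjured ones, which makes it at least 62.2-fold higher against a floor of 3 UMIs over the group, while its exact conditional interval begins at 46.7. Runx1, a transcription factor, had 11 UMIs and 0, at least 29.8-fold higher against the same floor, with an interval that begins at 20.4. The complement component C4b had an NE of 0 to 4.72 with a median of 3.64 after ONC and of 0 to 4.60 with a median of 2.48 without injury. Its ratio was 2.34 (2.15 to 2.55), and it was 4.73 times (3.76 to 6.01) as high as in injured NFOs. H2-D1, a class I molecule that shows peptides to T cells, and Il33, a nuclear alarm cytokine, had ratios of 3.12 (2.29 to 4.19) and 2.48 (1.92 to 3.17). Il33 had 0 UMIs in the injured OPCs and NFOs of this depth, while for H2-D1 the OPC level of 130 CPM was within counting error of the 343 CPM here. Serpina3n, a protease inhibitor, and the tetraspanin Cd63 had ratios of 1.35 and 1.80, under 2-fold.

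After Abca1 and Apoe, the 10 genes with the highest ratios were Fam13c, Cpe, 9030025P20Rik, Col16a1, Syne2, Ermard, S100a1, Sparc, mt-Nd4l and Lbh, in this order. Fam13c, of which little is known, was found in 36 of 54 injured and in 17.7% of uninjured barcodes, with a highest NE of 3.21 and 3.09. It went from 78.6 to 589 CPM, a ratio of 7.49 (5.71 to 9.82), and it was 3.37 times (2.03 to 5.89) the level of injured NFOs and 6.79 times (1.83 to 56.8) that of injured OPCs. Lbh, a transcription cofactor, was found in 39 of 54 and in 30.5%, with a ratio of 4.87 (3.79 to 6.24), and its level was 6.54 times (3.32 to 14.7) that of injured NFOs and 0.943 times (0.538 to 1.79) that of injured OPCs. Cpe, which trims peptide hormones, had a ratio of 6.71, but its level was under that of injured NFOs, at 0.603 times (0.383 to 0.952). S100a1, a calcium sensor, was likewise under the NFO level, at 0.419 times, and Sparc, a matrix protein, was at 0.862 times (0.630 to 1.18). Without barcodes poor in Malat1, the ratio of injured over uninjured was 4.44 (2.59 to 7.40) for Cpe. It was 2.33 (1.56 to 3.39) for S100a1 and 3.67 (2.66 to 5.01) for Sparc. Collagen gene Col16a1 and Syne2, which ties the nucleus to the cytoskeleton, had ratios of 6.32 and 5.88. Ermard and 9030025P20Rik, which lie near each other on chromosome 17, had 5.72 and 6.59, but were only 0.236 times (0.152 to 0.372) and 0.271 times (0.167 to 0.449) the level of injured OPCs.

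Single members of other lists were past 2-fold without the list. The serine synthesis enzymes Phgdh and Psat1 had ratios of 0.14 (0.0679 to 0.264) and 0.26 (0.139 to 0.454), and a Phgdh UMI was found in 8 of 54 injured and 61.7% of uninjured barcodes. They are 2 of the 3 tested members of the list of the integrated stress response, which is known to raise them, and both passed through the uninjured group alone. The third, Slc3a2, had 0.74, and of the 19 members under the filter, which had few UMIs, Ddit3 had 16 against 55, a ratio of 2.36 (1.26 to 4.18). Over the whole list of 22, 9 were at least 2-fold higher and 3 lower, with intervals above 1 for 7 and under 1 for 2. Without the CPM filter, 2012 of 9927 genes with a UMI in both groups were at least 2-fold higher and 1098 lower. Among lineage transcription factors 1 of 8 was lower, against 7.95% of all genes tested. It was Sox10, which drives myelin genes, at 0.34 (0.206 to 0.518). Myrf, its partner in that role, had 0.75, and Olig1 and Nkx6-2 had 0.839 and 1.03. The median log2 of the list was 0.05.

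In the lysosome list, 2 of 7 were higher and 1 lower, against 6.57% and 7.95% of all genes tested. Ctsb, a cysteine protease, was found in 45 of 54 injured and 51.8% of uninjured barcodes, at 900 against 238 CPM, a ratio of 3.78 (3.13 to 4.56). The aspartic protease Ctsd had 2.06 and Laptm4a, a lysosome membrane protein, 0.34. The injured NFOs held 884 CPM of Ctsb, so this level was not particular to the oligodendrocytes. Of iron genes, Ftl1, the ferritin light chain, had 2.14 (1.83 to 2.48), Trf, the transferrin that oligodendrocytes secrete, 0.48 (0.445 to 0.522), and Fth1, the heavy chain, 1.06 (1.02 to 1.1). The value of Fth1 rests on barcodes poor in Malat1. With these left out of both groups, Fth1 was past 2-fold lower, at 0.480 (0.453 to 0.509). Ftl1 was then under 2-fold, at 1.59, and Trf stayed at 0.488. Among injured barcodes, Fth1 was 7.51 times (7.0 to 8.07) as high in those poor in Malat1 as in the rest. In the cytoskeleton list, 4 of 12 were lower and 1 higher, against the same shares of all genes. Stmn1, which takes microtubules apart, Tubb4a, the tubulin of myelinating cells, Tuba1a and Stmn4 had ratios of 0.29, 0.37, 0.41 and 0.491, while Map4, which stabilizes microtubules, had 2.62.

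Housekeeping lists were largely within 2-fold. Of 77 tested cytosolic ribosomal protein genes none was past 2-fold, with a median log2 ratio of -0.04. Summed over the list the ratio was 0.958 (0.933 to 0.984), and 0.640 (0.617 to 0.664) without barcodes poor in Malat1. Of 50 tested nuclear-coded genes of oxidative phosphorylation 2 were lower, against 7.95% of all genes tested, Atp5b at 0.30 and Ndufs7 at 0.37. Of the 13 mitochondrially coded genes 3 were higher, against 6.57% of all genes tested. These were mt-Nd4l at 5.23, mt-Nd6 at 3.67 and mt-Nd4 at 2.88, while mt-Nd3 stood at 0.567 and mt-Co3 at 0.861. The genes mt-Nd4l and mt-Nd4 overlap at their ends, so how their reads were split is uncertain. The lincRNAs Gm42418 and AY036118 overlap on opposite strands (chromosome 17, 39846958 to 39848788 and 39847113 to 39848035), and strand use in the counting is not given in the sources used here. Gm42418 had a ratio of 3.38 and AY036118 of 1.55. Both are uncertain for this reason.

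Barcodes poor in Malat1 differed from the rest of the injured ones in many genes. In the 15 with under 0.5% Malat1, the median depth was 2259 UMIs and mitochondrial RNA took a median of 6.6%, and in the other 39 they were 3694 UMIs and 13.7%. Neat1, another nuclear RNA, was 0.0279 times (0.00904 to 0.0655) as high in the 15 as in the 39. Mag was found in 12 of 15 and in 37 of 39, and Abca1 in 1 of 15 and in 26 of 39. The level of Abca1 was 0.0652 times (0.00163 to 0.377) as high in the 15, while that of Apoe was 1.85 times (1.53 to 2.23) as high. S100b, a calcium-binding protein of glia, was 9.35 times as high in the 15, Mbp 7.32 times (2.23 times, 2.0 to 2.49, without the 2 barcodes with most Mbp, both of which are among the 15), the ribosomal protein list 3.77 times and the nuclear-coded oxidative phosphorylation list 3.90 times.

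The levels of the cholesterol synthesis list did not part them. It stood at 715 CPM in the 15 and 734 CPM in the 39, a ratio of 0.973 (0.609 to 1.5). With barcodes poor in Malat1 left out of both groups, the ratio of the list was 0.115 (0.0941 to 0.139), that of Apoe 26.6 (21.7 to 32.8), that of Abca1 76.4 (36.4 to 185) and that of Mog 0.292 (0.245 to 0.346). Of S100b it was 1.2 (0.938 to 1.53), against 3.07 (2.65 to 3.55) in all barcodes, so the higher S100b of the whole group was that of the 15. Counts of genes past 2-fold were 201 higher and 204 lower in that comparison.

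The same contrast was read in the deeper and shallower oligodendrocytes, 84 injured and 203 uninjured barcodes of at least 8000 UMIs and 155 and 247 of under 1500. The bands were cut by depth, so differences between them are descriptions. Within them, depth was less alike than at middle depth. The deep barcodes had medians of 22473 UMIs injured and 11054 uninjured, and the shallow ones 698 and 851. The part of depth in the ratios of these bands was not tested. Of the genes tested in each, 5.59% were at least 2-fold higher and 2.88% lower in the deep band, and 21.2% and 38.6% in the shallow band. Cholesterol synthesis was lower in each band, with 12 of 13 tested members past 2-fold in the deep one, and the list stood at 1077 against 6342 CPM deep and 509 against 4569 CPM shallow. Hmgcs1 had a ratio of 0.0953 (0.0842 to 0.107) deep and 0.109 shallow.

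The markers of these barcodes did differ by depth. In the deep band Rtn4 was 3203 against 1624 CPM, a ratio of 1.97 (1.90 to 2.05), where it was 0.97 at middle depth and 0.531 in the shallow band. Mag had a ratio of 1.02 (0.992 to 1.06) deep and 0.293 shallow. Mog was 0.721 deep and 0.344 shallow. Apoe was higher in all bands, at 57 deep and 41.1 shallow, and Klk6 at 4.09 and 5.11. Within the injured library, the middle band held 0.512 times (0.455 to 0.575) the Rtn4 level of the deep band and 0.446 times (0.385 to 0.515) that of Mog, but 0.919 times (0.846 to 0.998) that of Mag and 2.59 times (1.94 to 3.43) that of Abca1.

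**Figure D5:**
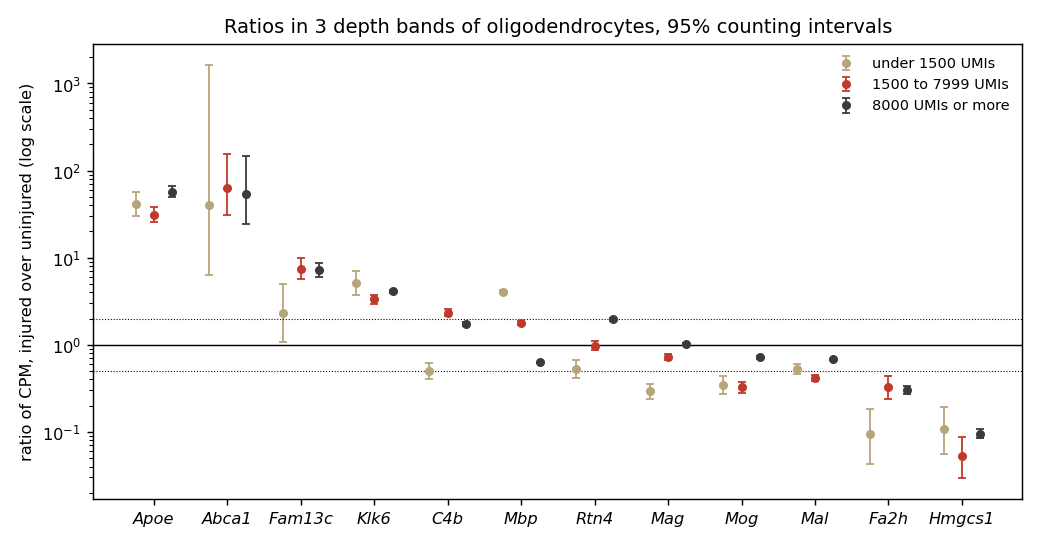
Ratio of CPM, injured over uninjured (y axis, log scale), of 12 named genes in oligodendrocytes of 3 depth bands. Points are ratios, bars are 95% counting intervals and dotted lines mark 2-fold. Hmgcs1 is low and Apoe high in all bands, while Rtn4 goes from 0.531 in the shallow band to 1.97 in the deep band.

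Of all genes tested between middle and deep injured barcodes, 9.49% were at least 2-fold higher and 14.3% lower at middle depth, and between the uninjured bands 3.01% and 4.27%. The highest at middle depth were Gm26917, a lincRNA, Syne2, mt-Nd6, AY036118 and Sec14l5, with ratios over the deep band of 8.11, 6.35, 6.03, 5.41 and 5.26. The lowest were Selenos, which helps to clear misfolded proteins, at 0.174, Fez1, a transport adaptor, and Klk8, both at 0.235, Atp5d at 0.241 and Psmc2, a proteasome subunit, at 0.249. Beside these, the immune marker list stood at 927 CPM at middle depth, 152 CPM in the deep band and 4253 CPM in the shallow band, and barcodes with under 0.5% Malat1 were 15 of 54, 0 of 84 and 118 of 155.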

How the data were processed

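Single cells of the optic nerve injury site were profiled by droplet scRNA-seq, in 1 library of crushed and 1 of uninjured nerves. The processing notes of the submitters name bcl2fastq 2.17.1.14, Cell Ranger 1.3, Seurat 4.0.3 and the mouse build mm10, without roles. The deposited values are natural log values, made by the authors as ln(1 + UMIs x 10000 / UMIs of the barcode). The authors kept barcodes with at least 200 genes, at most 20% mitochondrial UMIs and at most 150000 UMIs, and typed them by marker genes. UMIs were recovered from the natural log values and came out whole within 0.001 in 100% of barcodes. No doublet caller was run here, and strand use in the counting is not given in the sources used here.

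The table has 31053 gene rows, and 4 rows with a repeated name were left out. UMIs were summed over the barcodes of each group and scaled to CPM. Genes with a mean of both CPMs of at least 100 and a UMI in at least 10% of barcodes of either group were compared, and a gene was counted as higher or lower at a ratio of at least 2 or at most 0.5. Intervals are exact (Poisson for levels, binomial for shares, conditional binomial for ratios). Ratios against 0 used a floor of 3 UMIs over the group.

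Genes were named by a rule: Mag, Mog, Rtn4 and Apoe, the 12 highest and 12 lowest ratios, up to 4 members of each list with the largest log2 ratio, and the 5 highest and 5 lowest between middle and deep injured barcodes. Further members of the lists, S100b, Klk8, Runx1, Omg and Ddit3 among them, were named after their values were seen. The members and the 26 gene lists were chosen with earlier results of these data known. A further 3 lists were taken by name pattern (ribosomal, oxidative phosphorylation and mitochondrially coded genes). The alternatives were other depth windows, thinning to 1500 UMIs, 1 to 1 matching by depth, other scalings, filters and weights, and leaving out barcodes, of which leaving out those without Mag was added after seeing the data. TMM factors were computed in Python because the deposited unit is no count. Counts for the 1660 genes were simulated as Poisson draws from the summed uninjured profile, with 200 genes changed 4-fold. Of the intervals, 95.7% held the true ratio, and 100% of changed genes and 0.753% of unchanged genes passed 2-fold. These draws hold no spread between barcodes and suit the intervals by design, so they check the computation only. Positions are from GENCODE and promoters from RefSeq. A second table with the same barcodes, and the gene Sept4, which was not matched by name, were not used, and some genes are not reported here. Python 3.11.15 with numpy 2.4.6, scipy 1.17.1, pandas 2.3.3 and matplotlib 3.10.9 was used.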

Additional observations from a re-analysis of the deposited data

Results flagged for a closer look

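For 8 named genes the ratio of injured over uninjured CPM went one way at middle depth and the other way in the deep or the shallow oligodendrocytes, by more than 1.5 times in each and with counting intervals that do not hold 1. None of these differences was tested, since each condition is 1 library. Against the deep band, Mbp, the basic protein of compact myelin, had a ratio of 1.78 at middle depth and 0.627 in the deep barcodes, and its value at middle depth rests on 2 barcodes. The noncoding RNA AY036118 had 1.55 and 0.358. Against the shallow band, genes higher at middle depth were Mdm2, which restrains p53, with 2.46 against 0.189, C4b with 2.34 against 0.50, Neat1 with 2.68 against 0.253, and Gm26917 with 3.97 against 0.343. Genes lower at middle depth were the chaperones Hsp90ab1, with 0.510 against 1.53, and Cryab, with 0.624 against 1.51. In the shallow band 118 of 155 injured barcodes had Malat1 under 0.5%, against 15 of 54 at middle depth, and the part of this in the differences was not tested.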

How the results depend on the processing

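Among the single genes and the lists recomputed under the alternatives, which leave out most genes past 2-fold, no value past 2-fold changed direction. Of the main results under alternatives, 119 values stayed the same by the rule for their kind, while 21 moved. A gene ratio had to stay within its main counting interval, and a difference of mean NE had to keep its direction. Counts had to stay within 1.5 times, and Malat1 and immune shares within the standard deviation over barcodes. Ratios under 2-fold did cross 1, such as that of Mbp (0.797 to 3.72) and the median of the ribosomal list (0.655 to 1.5). The log2 ratio of Apoe, 4.96 as reported, was 5.31 with uninjured barcodes matched by depth, 4.58 at 2000 to 6000 UMIs and 5.30 at 1000 to 12000 UMIs. In these same windows Mog had -1.86 and -1.08, Rtn4 -0.25 and 0.29, and Mag -0.28 in the wider one, where 3 rather than 5 members of the non-compact myelin list were at least 2-fold lower. Mag had -0.62 under TMM scaling, and under a filter of 500 or more genes with mitochondrial RNA capped at 10% Mag had -1.01 and Mog -1.07. Genes at least 2-fold higher numbered 67 under TMM scaling, and with that stricter filter 202 were higher and 200 lower, over 20 injured barcodes. Without barcodes poor in Malat1 201 were higher and 204 lower, at a mean CPM of at least 300 they were 34 and 46, and without a CPM filter 2012 and 1098. The causes of these changes were not tested, apart from the CPM filters, which change how many genes are compared. Ratios ranged over the alternatives from 0.0392 to 0.105 for Hmgcs1, from 42.8 to 76.4 for Abca1 and from 2.55 to 5.23 for Klk6. No paired analysis was possible because each condition is 1 library. At this depth Rgma, with 19 injured UMIs, had an interval of 0.542 to 1.49, so differences of that size were not detectable in genes of its level.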

Other observations

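Lists of stress and signalling genes that the comparison above does not describe were read at middle depth. Of 10 tested heat shock proteins and chaperones none was past 2-fold, and the median log2 ratio was -0.47. Hsp90ab1 and Hsp90aa1, cytosolic chaperones, had ratios of 0.510 and 0.528, Calr, a chaperone of the endoplasmic reticulum, 0.533, and Cryab, a small heat shock protein, 0.624. Without barcodes poor in Malat1 these genes were past 2-fold. In the same order their ratios were 0.409 (0.333 to 0.497), 0.452 (0.368 to 0.550), 0.494 (0.313 to 0.743) and 0.422 (0.328 to 0.535). Of 5 tested immediate early genes, which respond to stimulation within minutes and to cell dissociation, none was past 2-fold, with Klf6 at 1.65, Junb at 1.21, Jun at 1.17 and Jund at 1.05. None of the 5 tested glycolysis and lactate genes was past 2-fold either. Without barcodes poor in Malat1 the glycolysis gene Aldoa was, at 0.435 (0.287 to 0.635).

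Of p53 targets 2 of 15 were tested, with Mdm2 at 2.46 and Phlda3 at 0.850. Over the 12 p53 targets with a UMI, 7 were at least 2-fold higher and none lower, with intervals above 1 for 3. Of interferon response genes 2 of 17 were tested, with Xaf1 at 2.24 and Ifi27 at 0.568. Over the 12 of these with a UMI, 2 were at least 2-fold higher and 6 lower, and the interval was clear of 1 for only 1 gene in each direction. Beside both lists, 2012 of 9927 genes with a UMI in both groups were at least 2-fold higher and 1098 lower without the CPM filter. Among connexins, channels and transporters, Car2, a carbonic anhydrase, had a ratio of 0.650, Kcnj10, the potassium channel that clears potassium around axons, 0.812, and the choline transporter Slc44a1 1.23. Of nuclear noncoding RNAs, Neat1 had 3974 against 1484 CPM, a ratio of 2.68, Kcnq1ot1 1.37 and Malat1 0.603.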
